A study of Mus musculus with 4 samples.

Results

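The 36 genes described here encode the machinery with which the endoplasmic reticulum (ER) takes in, folds and discards secretory proteins, in RNA that the labels name as that of islet macrophages. They were taken by name and grouped by role into 11 chaperones, 6 disulfide isomerases, 9 degradation factors, 5 translocation subunits and 5 stress sensors. All 36 were found among the 55421 gene identifiers of the count tables, and all 36 had enough counts to be tested. The 4 libraries came from C57BL/6 mice (a common inbred strain) of wild-type genotype, with 2 libraries from mice fed normal chow (NCD) and 2 from mice fed a high-fat diet (HFD). All groups share genotype and strain. The sources used here do not give age, sex, feeding time or any pooling of animals. Per the labels' protocols islets were frozen after isolation and the RNA is called that of macrophages, with no step given that separates these cells. The RNA may therefore be that of whole islets, and every level reported is a share of all RNA in the library. Nothing in the labels ties the 2 libraries of a diet to separate animals, so every p-value rests on a spread between libraries that could be technical only.

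Proteins bound for secretion enter the ER through the SEC61 channel, are held by chaperones of the HSP70, HSP90 and lectin families, and gain disulfide bonds from protein disulfide isomerases. Chains that fail to fold are threaded back to the cytosol and destroyed, a process called ER-associated degradation. When unfolded chains build up, the membrane sensors IRE1, ATF6 and PERK start the unfolded protein response, which raises transcription of much of this machinery. Pancreatic beta cells, acinar cells and plasma cells secrete so much protein that they carry large amounts of it.

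Most of the machinery was lower in HFD. Of the 36 genes, 27 fell, 1 rose and 8 did not pass the test (edgeR's quasi-likelihood test, Benjamini-Hochberg adjusted p under 0.05 over all 21563 genes tested). Among all genes tested, 14.5% were lower and 17.9% higher in HFD, and among those with a mean of at least 10 CPM (a gene's counts as a share of its library, per 1e6 counts, as scaled between libraries by TMM), 24.6% were lower and 20.5% higher. Most of the 36 had means far above 10 CPM, and the shares among genes at their levels were not computed. The median log2 change of the 36 was -0.35, beside 0.0026 for all genes tested and -0.07 for those of at least 10 CPM. Both HFD libraries lay below both NCD libraries in 29 of the 36 and above them in 3, beside 33.2% and 34.5% of all genes tested and 44.7% and 32.4% of those of at least 10 CPM. Falls were mostly modest: only Calr, Hyou1, Sdf2l1, Pdia6, Derl2 and Derl3, 6 genes, fell by at least 1.5-fold. The roles differed in their counts, from 11 of 11 chaperones lower to 1 of 5 translocation subunits, though a difference between roles was not tested. In lists of further genes described below, 4 of 13 other chaperones and prolyl isomerases were lower, and 9 of 19 other translocation and signal peptide genes.

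**Figure D1:**
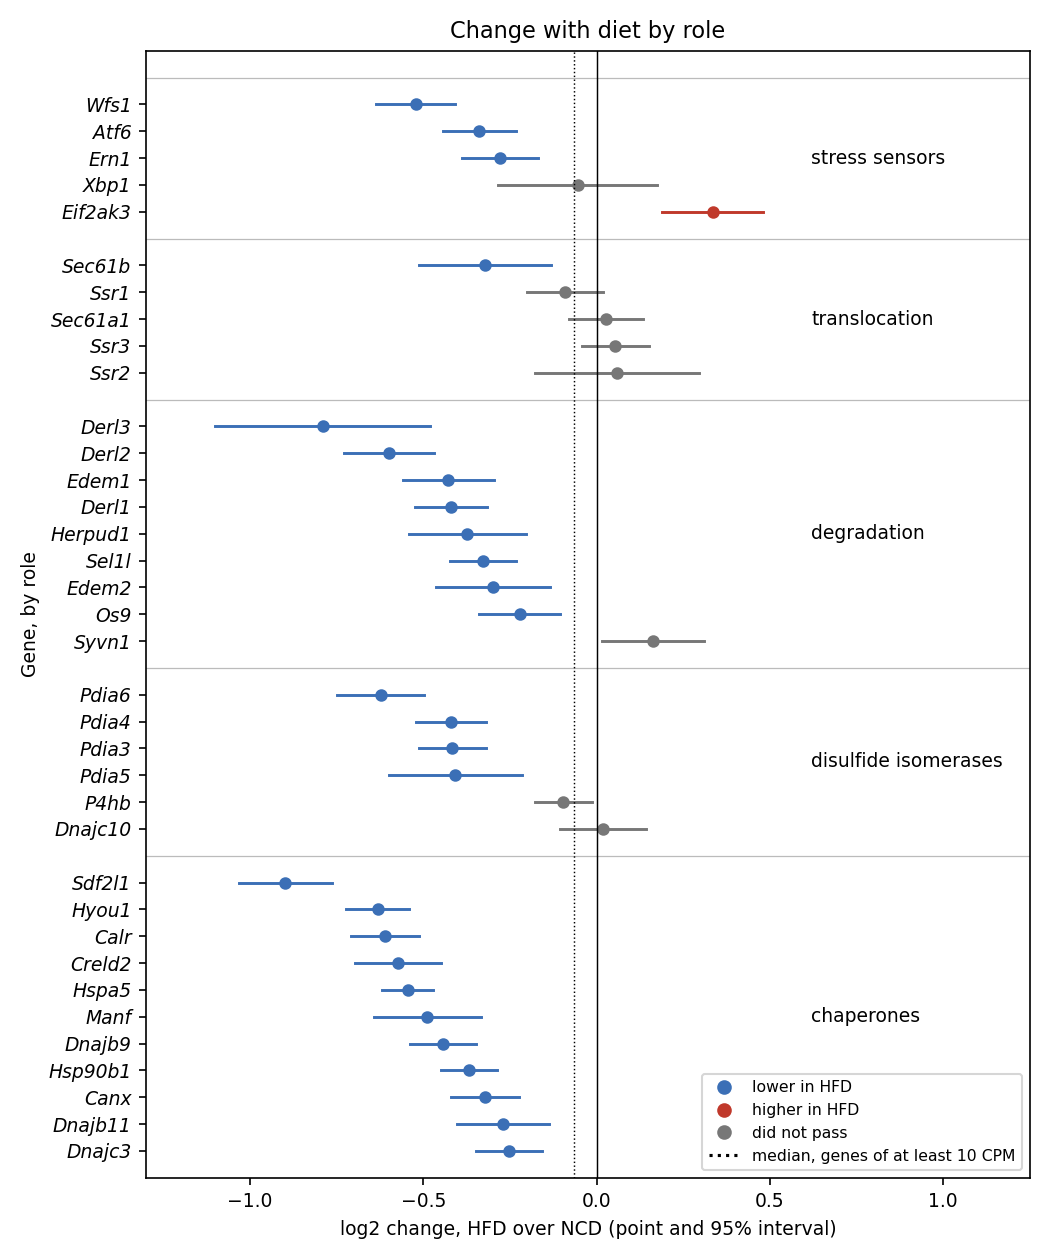
Log2 change of HFD over NCD for each of the 36 genes, grouped by role, with 95% intervals from edgeR; the dotted line is the median of all genes of at least 10 CPM. Chaperones all sit left of 0, from -0.90 for Sdf2l1 to -0.25 for Dnajc3, while 4 of 5 translocation subunits did not pass and Eif2ak3 is the gene that rose.

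As a share of each library, without scaling between libraries, the 36 genes together held 16678 and 17039.8 CPM in NCD, against 12840.2 and 13036 CPM in HFD, an HFD level 0.767 times that of NCD. Chaperones made up 8757 and 9082 CPM of this in NCD, against 6318 and 6341 CPM in HFD. The translocation subunits held 1173 and 1189 CPM in NCD, against 1147 and 1197 CPM in HFD, so their sums overlapped. Totals of the libraries ran from 56740720 to 64490097 counts. The summed markers of beta cells, 11 genes led by Ins2 and Iapp, stood at 17936 and 18415 CPM in NCD, against 13809 and 14422 CPM in HFD, 0.777 times the NCD level, with 9 of 11 lower and none at 0. Macrophage markers, 13 genes, summed to 1043 to 1084 CPM in NCD, against 878 to 885 CPM in HFD (7 lower, 3 higher), so that markers of the labelled cell type were detected, but at lower sums than those of endocrine cells. Unlike these sums, values of single genes are scaled between libraries by TMM. Adgre1, which encodes the macrophage antigen F4/80, stood at 29.5 and 31.9 CPM in NCD, against 26.4 and 24.3 CPM in HFD. The insulin gene Ins2 stood at 9771 and 9891 CPM in NCD, against 8307 and 8729.8 CPM in HFD.

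Markers of acinar, plasma, fibroblast and alpha cells were mostly higher in HFD, and those of delta and PP cells were not. Acinar markers (12 of 13 higher, 1 lower, Ptf1a at 0 in NCD) stood at 434 and 454 CPM in NCD, against 2859 and 3212 CPM in HFD, B and plasma cell markers (10 of 10 tested higher, Tnfrsf17 untested and at 0 in NCD) at 743 and 746 CPM, against 4788 and 4824 CPM, and fibroblast markers (7 of 7 higher) at 117.6 and 117.5 CPM, against 1229 and 1259.9 CPM. Alpha cell markers (4 of 7 higher), led by the glucagon gene Gcg, stood at 9548 and 10008 CPM in NCD, against 13477 and 14115 CPM in HFD, and delta and PP cell markers (2 lower and 1 higher of 4) at 4417 and 4630.4 CPM in NCD, against 3768 and 3925 CPM in HFD. T cell markers (7 of 7 higher) summed to 10.5 and 10.1 CPM in NCD, against 65.7 and 59.9 CPM in HFD, and endothelial markers (4 higher and 3 lower of 8) to 2219 and 2279 CPM, against 2423 and 2422 CPM. A list of 10 genes that respond to stimulation or handling held immediate early genes and the cytosolic heat shock genes Hspa1a and Hspa1b. Of the 10, 9 were higher, with sums of 959 and 964 CPM in NCD, against 2685 and 2843 CPM in HFD. Hspa1a and Hspa1b were among those higher (log2 change 1.99 and 2.04). The part of these cell types and of handling in the fall of the ER genes was not tested, and in bulk RNA fewer cells of a type and less RNA per cell cannot be told apart.

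**Figure D2:**
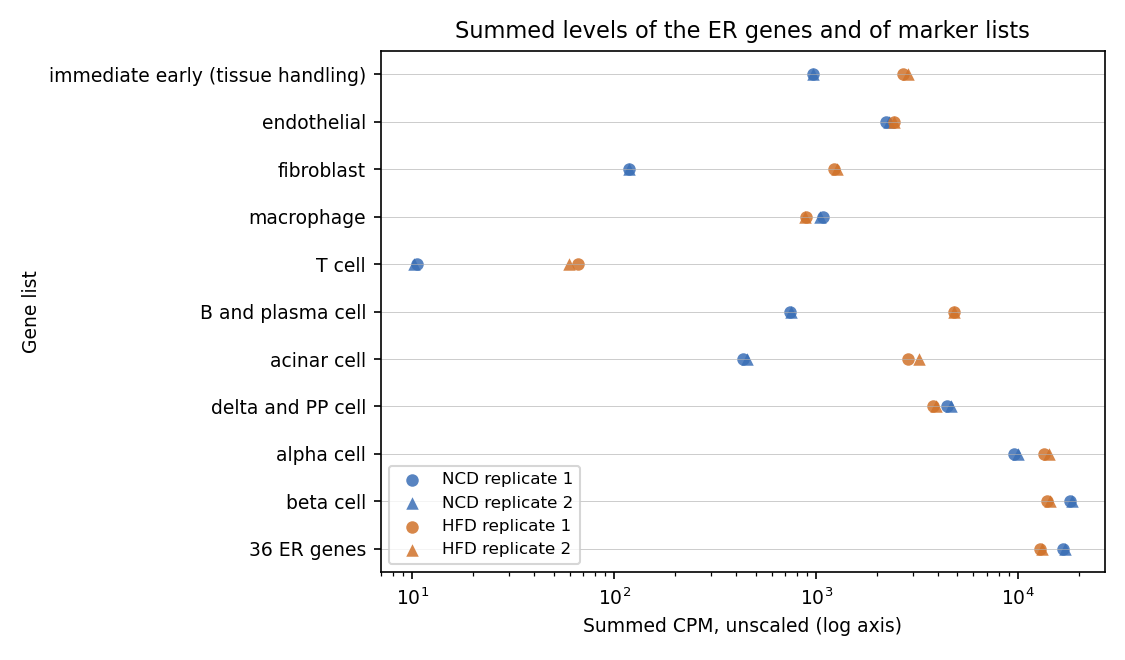
Summed CPM, unscaled and on a log axis, of the 36 ER genes and of each marker list in the 4 libraries, with colour for diet and shape for replicate. The ER genes and the beta cell markers lie lower in HFD (12840.2 and 13036 CPM, and 13809 and 14422 CPM), while acinar, fibroblast, B cell and T cell markers lie several-fold higher.

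The unfolded protein response is known to act at the promoters of a part of this machinery. There ATF6 binds, with the factor NF-Y, the ER stress element (ERSE), which is CCAAT and CCACG with any 9 bases between them. RefSeq promoter windows (GRCm38.p6), from 250 bases before to 50 after the gene start, were matched for 30 of the 36 genes; Hyou1, Manf, Derl1, Sec61a1, Ssr2 and Atf6 had none. On both strands, the exact ERSE was found in 9 of the 30 genes and in 0.119% of all 32851 windows, that is 39 windows. The first is a count of genes and the second of windows, 31 of which belong to the 30 genes. The motifs were chosen as elements already known for genes of this kind, so these shares are a description and no test. The related ERSE-II, which is ATTGG, any base and CCACG, was found in Herpud1 and Dnajb11, 2 of the 30, and in 0.0365% of all windows. The unfolded protein response element TGACGTGG was found in 0 of the 30 and in 0.676% of all windows. The 3 motifs share letters, since ERSE and ERSE-II both end in CCACG, but no site of the 36 genes was counted under more than 1 of them. By role, an ERSE stood in 6 of 9 chaperone genes with a window, 1 of 6 isomerase genes, 2 of 8 degradation genes, 0 of 3 translocation genes and 0 of 4 sensor genes. A match is a run of letters and does not show binding.

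The sites themselves are given so that the fixed ends and the variable middle can be compared, each read 5′ to 3′ in the direction of the motif, with the fixed letters in capitals and the position of the site's first base on the gene's strand counted from the gene start:
Hspa5, ERSE, gene strand, from -65: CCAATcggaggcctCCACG
Calr, ERSE, opposite strand, from -162: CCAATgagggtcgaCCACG
Derl3, ERSE, opposite strand, from -156: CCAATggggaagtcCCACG
Hsp90b1, ERSE, gene strand, from -212: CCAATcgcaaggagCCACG
Hsp90b1, ERSE, opposite strand, from -107: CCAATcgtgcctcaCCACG
Canx, ERSE, gene strand, from -145: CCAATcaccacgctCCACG
Pdia6, ERSE, gene strand, from -98: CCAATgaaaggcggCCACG
Dnajc3, ERSE, gene strand, from -105: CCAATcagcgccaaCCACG
Creld2, ERSE, opposite strand, from -126: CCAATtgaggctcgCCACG
Syvn1, ERSE, gene strand, from -44: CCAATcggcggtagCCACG
Herpud1, ERSE-II, gene strand, from -52: ATTGGgCCACG
Dnajb11, ERSE-II, gene strand, from +8: ATTGGcCCACG
Hsp90b1, which encodes the ER HSP90 protein GRP94, was the gene with a pair of sites, in opposite directions.

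The 250 bases before the start of 4 genes show where the sites lie, with the fixed letters in capitals: Hspa5 and Hsp90b1 as abundant chaperones that fell, Herpud1 as the degradation gene with an ERSE-II that fell, and Syvn1 as the gene with an ERSE that did not pass and whose values were higher in HFD (GRCm38.p6, each on the gene's own strand):
Hspa5 (chr2:34771840-34772089, plus strand): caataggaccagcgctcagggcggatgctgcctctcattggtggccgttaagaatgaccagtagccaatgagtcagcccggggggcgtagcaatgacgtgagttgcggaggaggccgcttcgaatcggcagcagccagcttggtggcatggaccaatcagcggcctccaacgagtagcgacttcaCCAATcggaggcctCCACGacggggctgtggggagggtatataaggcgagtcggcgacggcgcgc
Hsp90b1 (chr10:86705445-86705694, minus strand): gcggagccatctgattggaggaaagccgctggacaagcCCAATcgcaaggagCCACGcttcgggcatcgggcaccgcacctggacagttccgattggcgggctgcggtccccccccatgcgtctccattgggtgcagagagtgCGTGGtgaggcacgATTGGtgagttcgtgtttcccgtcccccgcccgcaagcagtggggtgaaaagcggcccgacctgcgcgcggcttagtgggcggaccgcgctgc
Herpud1 (chr8:94386179-94386428, plus strand): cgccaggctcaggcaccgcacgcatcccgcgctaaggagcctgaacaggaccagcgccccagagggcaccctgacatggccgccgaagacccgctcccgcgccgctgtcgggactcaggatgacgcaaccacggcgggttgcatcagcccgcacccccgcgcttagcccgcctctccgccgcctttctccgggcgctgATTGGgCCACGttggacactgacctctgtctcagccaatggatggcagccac
Syvn1 (chr19:6046326-6046575, plus strand): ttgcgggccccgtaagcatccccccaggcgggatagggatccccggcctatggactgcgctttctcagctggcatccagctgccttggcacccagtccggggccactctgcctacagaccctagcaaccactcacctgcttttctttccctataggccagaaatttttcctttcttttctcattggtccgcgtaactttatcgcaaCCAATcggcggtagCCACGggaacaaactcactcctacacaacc
The Hspa5 site begins 65 bases before the start, and that of Syvn1 44 bases before it. Starts here are those of the RefSeq windows, which for some genes differ from the GENCODE gene spans given below. The Hspa5 site, at chr2:34772025-34772043, lies inside the GENCODE span of that gene, which begins at 34771970.

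**Figure D3:**
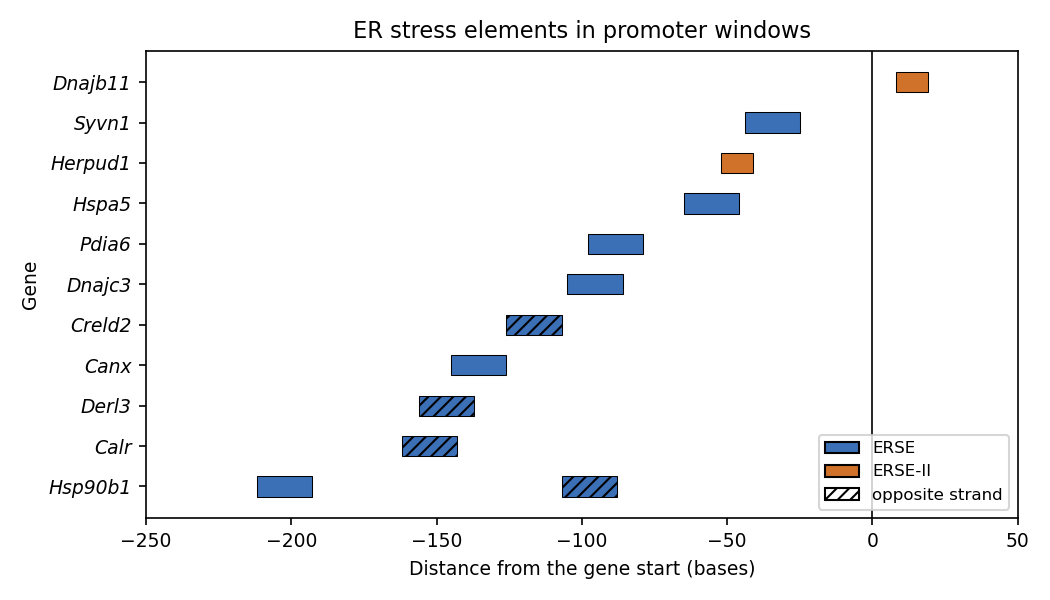
Position of each ERSE (blue) and ERSE-II (orange) relative to the gene start, in bases, for the 11 genes with a site; hatching marks sites that read on the strand opposite to the gene. Sites run from -212 in Hsp90b1 to +8 in Dnajb11.

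Of the 11 genes with a site, 10 fell and 0 rose, with a median log2 change of -0.37 and a range of -0.79 to 0.16. Of the 19 genes whose windows held no site, 13 fell and 1 rose, with a median of -0.32 and a range of -0.90 to 0.33. Of the 6 genes without a window, 4 fell and 0 rose, with a median of -0.38 and a range of -0.63 to 0.06. A difference between these sets was not tested. Sdf2l1, Wfs1 and Derl2 had a window without a site and were among the larger falls. Outside the 36 genes, 28 other genes had an ERSE window, of which 14 were tested, 3 were lower, 4 higher and 7 did not pass, beside 14.5% lower and 17.9% higher among all genes tested. Among them was Ero1b, named Ero1lb in the count annotation, a disulfide oxidase prominent in beta cells, at 457 and 537 CPM in NCD, against 313 and 176 CPM in HFD. Its fall, a log2 change of -1.02 (SE 0.265, edgeR adjusted p = 0.0351), was lost with a replicate block (0.0519), without a count filter (0.0503), with DESeq2 (0.0522) and without NCD replicate 1 (0.0562) or NCD replicate 2 (0.0992).

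Among the 5 translocation subunits of the 36, only Sec61b fell, and the rest gave intervals around 0. Of 19 other translocation and signal peptide genes, described below, 9 were lower and 0 higher. Sec61a1 (ENSMUSG00000030082, chr6:88503579-88518905, minus strand, GRCm38), the pore of the channel, stood at 304 and 302 CPM in NCD, against 303 and 316 CPM in HFD, so that the diets overlapped (log2 change 0.03, 95% interval -0.08 to 0.14, edgeR adjusted p = 0.668). Sec61b, a small channel subunit, stood at 92.6 and 90.4 CPM in NCD, against 68.7 and 77.6 CPM in HFD. Both HFD libraries were lower (log2 change -0.32, SE 0.0761, edgeR adjusted p = 0.0261), but the call was lost when NCD replicate 1 (0.0976), NCD replicate 2 (0.0654) or else HFD replicate 1 (0.0943) was left out. The translocon-associated subunits, which help chains pass the channel, did not pass: Ssr1 stood at 265 and 276 CPM in NCD, against 252 and 256 CPM in HFD (edgeR adjusted p = 0.183). Ssr3 was at 368 and 379 CPM in NCD, against 389 and 387 CPM in HFD, with HFD above NCD (edgeR adjusted p = 0.348). For Ssr2 the values were 142 and 141 CPM in NCD, against 134 and 162 CPM in HFD, where the HFD libraries lay on either side of NCD (edgeR adjusted p = 0.690). The intervals of the log2 change were -0.20 to 0.02 for Ssr1, -0.18 to 0.30 for Ssr2 and -0.04 to 0.15 for Ssr3.

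All 11 chaperones fell, and in each both HFD libraries lay below both NCD libraries. Hspa5 (ENSMUSG00000026864, chr2:34771970-34777547, plus strand, GRCm38), the ER HSP70 protein BiP and the most abundant of the 36, stood at 2868 and 2969.5 CPM in NCD, against 1994 and 2007 CPM in HFD. It fell by 31.5% (log2 change -0.55, SE 0.0292, edgeR adjusted p = 0.000216). Per kilobase of exon, a scale on which genes can be compared, Hspa5 was at 690.1 ± 17.0 CPM per kilobase in NCD and 473 ± 2.20 in HFD (SD, n = 2). Calr, the lectin chaperone calreticulin, stood at 1635 and 1740.1 CPM in NCD, against 1106 and 1104 CPM in HFD, a fall of 34.5% in which the HFD libraries were almost equal (log2 change -0.61, SE 0.0390, edgeR adjusted p = 0.000356). Its membrane-bound relative Canx, calnexin, fell less, from 785 and 825 CPM to 649 and 639.5 CPM (log2 change -0.32, SE 0.0391, edgeR adjusted p = 0.00285). Hsp90b1, already shown for its pair of elements, fell from 1364 and 1410.3 CPM to 1069 and 1079 CPM (log2 change -0.37, SE 0.0324, edgeR adjusted p = 0.000948); 10.3% of its exon bases overlap a pseudogene on the opposite strand.

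The largest fall of the 36 was that of Sdf2l1, which keeps BiP clients soluble together with an ER J protein. Sdf2l1 (ENSMUSG00000022769, chr16:17130138-17132383, minus strand, GRCm38) stood at 134 and 132 CPM in NCD, against 70.1 and 73.0 CPM in HFD, a fall of 46.3% (log2 change -0.90, SE 0.0537, edgeR adjusted p = 0.000295). Hyou1, an exchange factor that reloads BiP with ATP, fell from 644 and 638 CPM to 408 and 419 CPM (log2 change -0.63, SE 0.0362, edgeR adjusted p = 0.000262). Creld2 and Manf, small ER proteins induced by stress, were also lower in HFD: Creld2 at 158 and 163 CPM in NCD against 109 and 107 CPM in HFD, and Manf at 297 and 320.5 CPM against 211 and 229 CPM. The J proteins, which hand clients to BiP, fell by unequal amounts. Dnajb9 (ERdj4), which also restrains IRE1, fell from 363 and 367 CPM to 268 and 269 CPM (log2 change -0.44, SE 0.0379, edgeR adjusted p = 0.000867). Dnajc3 (P58IPK) fell from 339 and 335 CPM to 282 and 283 CPM, and Dnajb11 (ERdj3) from 168 and 179 CPM to 143.5 and 144.4 CPM. The fall of Dnajb11 (log2 change -0.27, SE 0.0527, edgeR adjusted p = 0.0139) was lost when NCD replicate 2 (0.0531), HFD replicate 1 (0.0638) or HFD replicate 2 (0.0539) was left out.

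**Figure D4:**
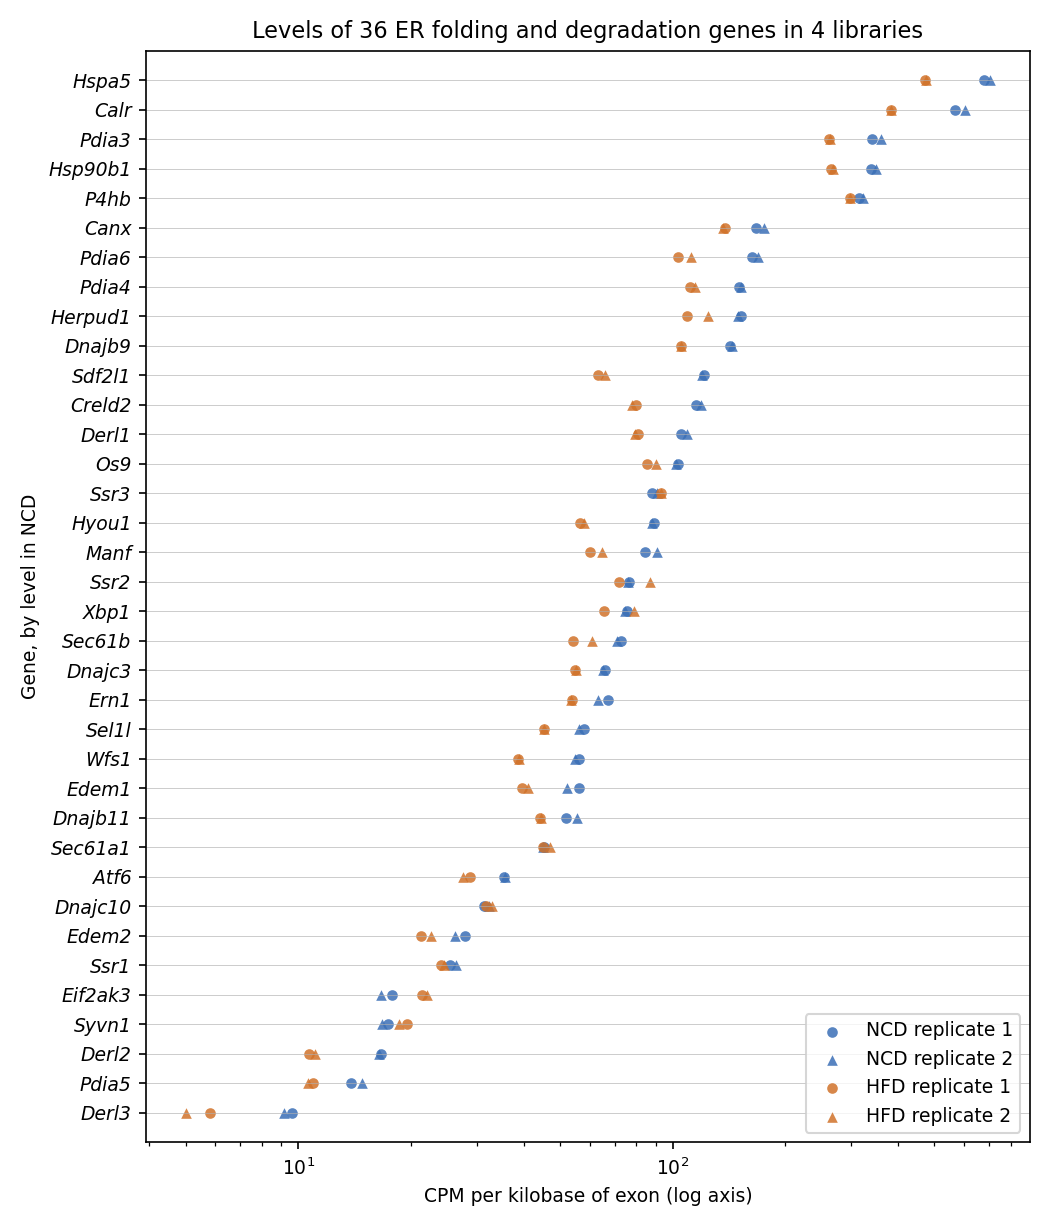
Level of each of the 36 genes in each of the 4 libraries, as CPM per kilobase of exon on a log axis, ordered by the NCD mean. Hspa5 and Calr head the order at 690.1 and 586 in NCD and Derl3 ends it at 9.37, and the NCD points lie right of the HFD points in most rows.

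Of the 6 disulfide isomerases 4 fell and 2 did not pass. Pdia6 (ENSMUSG00000020571, chr12:17266545-17284770, plus strand, GRCm38), which also dampens IRE1, showed the largest fall of the group, from NCD values of 611 and 633 CPM to HFD values of 388 and 419 CPM (log2 change -0.62, SE 0.0505, edgeR adjusted p = 0.000719). Pdia3, which works with calnexin and calreticulin on glycoproteins, fell from 1068 and 1127 CPM to 819.9 and 825 CPM (log2 change -0.42, SE 0.0385, edgeR adjusted p = 0.00112). Pdia4, a large isomerase found in BiP complexes, fell by a like amount, from 361 and 364 CPM to 267 and 275 CPM (log2 change -0.42, SE 0.0398, edgeR adjusted p = 0.00121). Pdia5 was the least abundant isomerase, at 38.3 and 41.002 CPM in NCD, against 30.3 and 29.5 CPM in HFD. Its fall (edgeR adjusted p = 0.0122) was lost without NCD replicate 2 (0.0564) or HFD replicate 2 (0.0588).

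The isomerases that did not pass were P4hb and Dnajc10. P4hb encodes the founding protein disulfide isomerase, which is also a subunit of the collagen prolyl hydroxylase. It stood at 899.8 and 922 CPM in NCD, against 852 and 853 CPM in HFD. Both HFD libraries were lower, but the log2 change was -0.10 (95% interval -0.18 to -0.01, edgeR adjusted p = 0.0770), and limma-voom called it lower (adjusted p = 0.0429). In the same libraries fibroblast markers were higher in HFD, and their part in the P4hb level was not tested. Dnajc10 (ERdj5), a reductase that opens disulfides of chains due for degradation, stood at 157 and 162 CPM in NCD, against 158 and 164 CPM in HFD, where the diets overlapped (95% interval of the log2 change -0.10 to 0.14). The counts of Hspa5 were 3.19 and 3.22 times those of P4hb in NCD and 2.34 and 2.35 times in HFD.

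Degradation genes fell with 1 exception, 8 of 9. Sel1l, the scaffold of the main ubiquitin ligase of the ER membrane, fell from 495 and 481 CPM in NCD to 389 CPM in both HFD libraries (log2 change -0.33, SE 0.0375, edgeR adjusted p = 0.00229). Its partner Syvn1, the ligase HRD1 itself, did not pass and stood at 84.2 and 81.4 CPM in NCD, against 94.98 and 90.3 CPM in HFD. Both HFD libraries of Syvn1 lay above NCD (log2 change 0.16, 95% interval 0.02 to 0.31, edgeR adjusted p = 0.0898), and it was called higher when only genes of at least 5 CPM were tested (adjusted p = 0.0365). The derlins, which form part of the channel for export to the cytosol, all fell. Derl1 fell from 351 and 363 CPM to 269 and 265 CPM (log2 change -0.42, SE 0.0411, edgeR adjusted p = 0.00135) and Derl2 from 134 and 132 CPM to 86.3 and 89.4 CPM (log2 change -0.60, SE 0.0515, edgeR adjusted p = 0.000882). Derl3 (ENSMUSG00000009092, chr10:75893413-75895941, plus strand, GRCm38), the lowest of the 36, fell from 19.1 and 18.2 CPM to 11.6 and 10.01 CPM (log2 change -0.79, SE 0.124, edgeR adjusted p = 0.00673). Derl3 is known to be abundant in acinar and plasma cells. Of the acinar markers 12 of 13 were higher in HFD, and of the B and plasma cell markers 10 of 10 tested. The acinar marker that was lower, Bhlha15, stood at 25.7 and 24.7 CPM in NCD, against 16.7 and 17.6 CPM in HFD. The part of these cells in the Derl3 level was not tested.

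Among the lectins and mannosidases that pick out misfolded glycoproteins, Edem1, Edem2 and Os9 also fell. In the glycan trimming list described below, Edem3, Man1b1 and Erlec1 did not pass (edgeR adjusted p = 0.0940, 0.242 and 0.991). Edem1 fell from 363 and 336 CPM to 255 and 265 CPM (log2 change -0.43, SE 0.0527, edgeR adjusted p = 0.00295). Edem2, at 96.5 and 90.8 CPM in NCD, against 73.6 and 78.6 CPM in HFD, and the lectin gene Os9, at 271 and 268 CPM in NCD, against 225 and 237 CPM in HFD, passed in the full set (edgeR adjusted p = 0.0205 and 0.0171). Both calls were lost without NCD replicate 1 (0.0937 for Edem2, 0.0672 for Os9) or HFD replicate 1 (0.0967 and 0.0921). Herpud1, a stress-induced adaptor of the ligase, fell from 355 and 349 CPM to 255 and 289 CPM, with a wider gap between the HFD libraries than for most of the group (log2 change -0.37, SE 0.0675, edgeR adjusted p = 0.0109).

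The sensors did not move together: Atf6, Ern1 and Wfs1 fell, Eif2ak3 rose and Xbp1 did not pass. Atf6, which is cut in the Golgi to free a transcription factor, stood at 328 and 329.5 CPM in NCD, against 265 and 255 CPM in HFD (log2 change -0.34, SE 0.0418, edgeR adjusted p = 0.00295). Ern1, which encodes IRE1α, the kinase and endonuclease that splices Xbp1 mRNA, fell from 549.6 and 516 CPM to 441 and 438 CPM (log2 change -0.28, SE 0.0442, edgeR adjusted p = 0.00699). Wfs1, a membrane protein that restrains ATF6 and whose loss causes beta cell failure in Wolfram syndrome, fell from 213 and 207 CPM to 146 and 147 CPM (log2 change -0.52, SE 0.0455, edgeR adjusted p = 0.000924). Eif2ak3 (ENSMUSG00000031668, chr6:70844515-70905245, plus strand, GRCm38), which encodes the kinase PERK that slows translation, rose from 107 and 100.3 CPM to 129 and 133 CPM, 1.26-fold, with both HFD libraries above NCD (log2 change 0.33, SE 0.0578, edgeR adjusted p = 0.00931). It was the only one of the 36 that rose, and the call held under all 12 other fits, though not with a minimum of 1.5-fold. Xbp1 stood at 245 and 243 CPM in NCD, against 213 and 257 CPM in HFD, with the HFD libraries on either side of NCD (log2 change -0.06, 95% interval -0.28 to 0.17, edgeR adjusted p = 0.702). Counts per gene do not separate spliced from unspliced Xbp1 mRNA, which was not analysed here.

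A further 97 genes of the same pathway, listed by function, were all tested. Of these 43 were lower, 9 higher and 45 did not pass, with a median log2 change of -0.21. The lower count was 28 without NCD replicate 2 or HFD replicate 1. Among all genes of at least 10 CPM 24.6% were lower and 20.5% higher, and counts such as 4 of 13 or 3 of 9 in the lists described next lie near that share. Signalling genes beside the sensors gave 8 lower and 2 higher of 14. The lower count was 5 when NCD replicate 1, NCD replicate 2 or HFD replicate 1 was left out, and the higher count was 1 when NCD replicate 2, HFD replicate 1 or HFD replicate 2 was. Ddit3 (CHOP), Trib3 and Ppp1r15a (GADD34), products of the PERK branch, fell: Ddit3 from 352 and 363 CPM to 229 and 242 CPM (log2 change -0.60, SE 0.0475, edgeR adjusted p = 0.000661), Trib3 from 314 and 326 CPM to 203 and 218 CPM, and Ppp1r15a from 446 and 479 CPM to 297 and 299.9 CPM. Atf4, which acts between PERK and these genes, overlapped between diets, at 373 and 407 CPM in NCD, against 365 and 399 CPM in HFD (edgeR adjusted p = 0.785). So the mRNA of the kinase was higher while these mRNAs were lower. Creb3l1 and Creb3l2, ER-bound transcription factors of secretory and matrix-producing cells, rose, Creb3l1 from 36.6 and 35.5 CPM to 49.7 and 47.1 CPM and Creb3l2 from 171 and 162.5 CPM to 196 and 198 CPM. The rise of Creb3l2 (edgeR adjusted p = 0.0155) was lost without NCD replicate 2 (0.0703), HFD replicate 1 (0.0550) or HFD replicate 2 (0.0713).

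Oxidoreductases beside the 36 moved in both directions, with 6 lower and 4 higher of 13. The lower count was 3 without NCD replicate 1, 1 without NCD replicate 2 and 2 without HFD replicate 1. Pdia2, an isomerase known from acinar cells, rose from 1.57 and 1.14 CPM to 10.9 and 12.3 CPM (log2 change 3.10, SE 0.219, edgeR adjusted p = 0.000475). Most acinar markers also rose in these libraries, and the part of acinar cells in the Pdia2 level was not tested. Ero1l (ERO1α), the oxidase that recharges isomerases and is induced by low oxygen, rose from 273 and 282 CPM to 391 CPM in both HFD libraries (log2 change 0.50, SE 0.0398, edgeR adjusted p = 0.000700). Prdx4, an ER peroxidase, rose from 16.5 and 15.55 CPM to 29.9 and 31.7 CPM. Txndc5, an isomerase of plasma cells and fibroblasts among others, rose from 109 and 178 CPM to 277 and 295 CPM, a call (edgeR adjusted p = 0.0220) lost without HFD replicate 1 (0.0513) or HFD replicate 2 (0.0724). Tmx4, a membrane-bound thioredoxin, fell from 201 and 198 CPM to 145 and 143 CPM.

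Other chaperones and prolyl isomerases gave 4 lower and 2 higher of 13. Fkbp2, a prolyl isomerase, fell from 67.2 and 71.4 CPM to 38.4 and 43.8 CPM, and Sil1, an exchange factor of BiP, from 82.5 and 99.96 CPM to 58.6 and 51.2 CPM. Both genes that rose take part in collagen folding: Serpinh1 (HSP47), from 57.6 and 64.0 CPM to 214 and 120.3 CPM, and Ppib (cyclophilin B), from 93.3 and 89.96 CPM to 116 and 121 CPM. Markers of fibroblasts rose in the same libraries, and their part was not tested.

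In the glycan trimming and folding check list 3 of 9 were lower and 0 higher, and 1 was lower without HFD replicate 1. Uggt1, which tags unfinished glycoproteins for another round with calnexin, fell from 333 and 347 CPM to 253 and 235 CPM (log2 change -0.48, SE 0.0537, edgeR adjusted p = 0.00215). Mogs, the first glucosidase, stood at 92.9 and 93.2 CPM in NCD, against 75.5 and 76.1 CPM in HFD, a fall lost without HFD replicate 1 (0.0525). Uggt2 stood at 37.5 and 32.3 CPM in NCD, against 26.4 and 24.7 CPM in HFD, and its call (edgeR adjusted p = 0.0232) was lost without NCD replicate 1 (0.0863), HFD replicate 1 (0.0613) or HFD replicate 2 (0.0975). Further degradation machinery gave 7 lower and 1 higher of 17. Svip, a small inhibitor of ER-associated degradation, showed the largest fall of that list, from 67.2 and 69.3 CPM to 34.75 and 35.0 CPM (log2 change -0.97, SE 0.0624, edgeR adjusted p = 0.000362). Ubxn4, which recruits the extraction ATPase to the ER, fell from 337 and 347 CPM to 269 CPM in both HFD libraries. Vcp, the ATPase itself, was higher by a small amount, 461 and 465 CPM in NCD, against 505 and 509 CPM in HFD (log2 change 0.13, SE 0.0349, edgeR adjusted p = 0.0387), which did not hold with no count filter (0.0667) and without any 1 of the 4 libraries (0.106 to 0.156).

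The other translocation and signal peptide genes gave 9 lower and 0 higher of 19, with a median log2 change of -0.24. Tram1, a channel-associated membrane protein, fell from 337 and 356 CPM to 239.8 and 249.9 CPM (log2 change -0.50, SE 0.0487, edgeR adjusted p = 0.00130). Srpr, a subunit of the receptor that brings ribosomes to the channel, fell from 543 and 553 CPM to 432 and 429 CPM. Sec63, a J protein that recruits BiP to the channel, fell from 264 and 275 CPM to 209.6 and 211 CPM. Of the oligosaccharyltransferase list, the enzyme that adds glycans to entering chains, 6 of 12 were lower and 0 higher. Magt1 fell from 132 and 137 CPM to 97.4 and 97.3 CPM, Ddost from 322 and 327 CPM to 246 and 255 CPM, and Tusc3 from 71.1 and 71.5 CPM to 52.4 and 53.1 CPM.

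**Figure D5:**
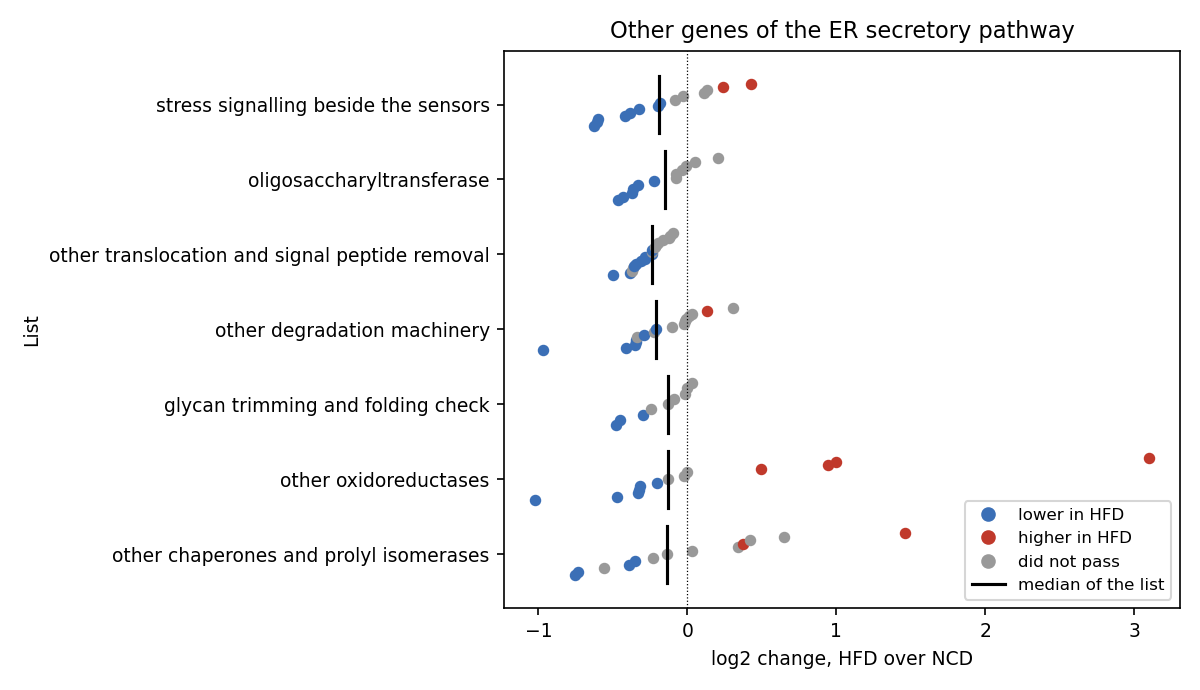
Log2 change of HFD over NCD for the 97 further genes of the pathway in 7 lists, with blue for lower, red for higher and grey for genes that did not pass; black bars are list medians. All list medians lie below 0, from -0.24 to -0.13, and Pdia2 stands at 3.10 on the right.

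Set against hormone transcripts, Hspa5 gave ratios that depended on the hormone, and no other of the ER genes was set against them. The counts of Hspa5 were 0.293 and 0.300 times those of Ins2 in NCD and 0.240 and 0.230 times in HFD. Against Iapp, another beta cell hormone, the ratio went the other way, with 0.49969 and 0.489 in NCD and 0.575 and 0.556 in HFD. Against Gcg it stood at 0.318 and 0.314 in NCD and 0.156 and 0.149 in HFD. Ins2 fell (log2 change -0.21, edgeR adjusted p = 0.00466), as did Iapp, from 5739 and 6072 CPM to 3466 and 3612 CPM (log2 change -0.74, edgeR adjusted p = 0.000188), while Gcg rose from 9032 and 9472 CPM to 12803 and 13461 CPM (log2 change 0.51, edgeR adjusted p = 0.000452). Ins1, the other insulin gene, did not pass, at 1502 and 1520 CPM in NCD, against 1530 and 1600 CPM in HFD (edgeR adjusted p = 0.320). Hspa5 was not set against Ins1.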

How the data were processed

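The authors deposited whole-number counts per Ensembl gene, 1 table per library. Per the submitters' processing notes, the build was GRCm38 and the tools included featureCounts (1.5.0), HISAT and DESeq (1.8.3). The sources used here give neither the strand setting nor the treatment of reads shared by genes. Per the labels' protocols, the islets were frozen, RNA was taken up in TRIzol and a KAPA kit gave stranded libraries. Without a known strand setting, reads of overlapping genes cannot be told apart: 11 of the 36 genes share exon bases with another gene, and Hsp90b1 and Ssr2 share at least 10%. Multiples of 4 were 1.61 to 1.71 times as frequent among low counts as the values next to them, so a count may not be 1 fragment.

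Symbols and exon lengths came from GENCODE M21 (GRCm38), where 55154 identifiers had a symbol. Older names of Ufd1 and Selenos were matched through RefSeq, and the longer of 2 identifiers was used for Ddit3. Exon length is the union over all transcripts and lowers the level per kilobase of genes with long rare exons. In R 4.3.3, genes passing filterByExpr with a minimum count of 10 were scaled by TMM and tested with edgeR 4.0.16 (quasi-likelihood F test for diet, 2 libraries each, no block, 0.05). Standard errors are the log2 change divided by the root of F, and 95% intervals use the test's degrees of freedom. The common biological coefficient of variation was 19.1%. On simulated counts of 20887 genes, the HFD against NCD test found 4% of 50 genes changed by 1.25-fold and 44% at 1.5-fold. It found 70% at 2-fold and 90% at 4-fold, with 2 false calls. The changed genes were drawn from all those with a mean above 1 CPM. Derl3, the lowest of the 36, had means of 18.7 CPM in NCD and 10.8 CPM in HFD. The simulated spread followed the trend over all genes. Between the libraries of a diet, the 36 had a median gap of 3.12% of the mean in NCD and 2.76% in HFD. The shares found were therefore not estimated for genes at the levels and with the spread of the 36. Alternatives were DESeq2's size factors, DESeq2 1.42.0, limma-voom (limma 3.58.1), other filters, the replicate number as a block, each library left out in turn, library sizes that omit 35 genes (endocrine and acinar markers and any gene holding over 1% of counts), counts divided by 4, and a fold minimum. Left-out fits assume that a lone library varies like those of the other diet.

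The members, lists and alternatives were chosen with earlier results of these data known. Named genes are all 36 members and, per list, the 3 smallest p and every gene called against its list's majority. Atf4, Ero1b, Iapp, Ins1, Bhlha15, Edem3, Man1b1, Erlec1, Hspa1a and Hspa1b were named after their values were seen. A gene that this rule picks is not reported here. Protein sequences were not analysed here.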

Additional observations from a re-analysis of the deposited data

How the results depend on the processing

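Of the 28 members called, 23 kept their call and direction under all 12 other fits, and 0 reversed. Leaving out 1 library gave 23 to 25 members lower and 1 higher in each case, and with a replicate block the counts were 27 lower and 1 higher, so the block changed no member's call. Same-numbered libraries did not deviate together (correlation 0.0021), so the numbers are not taken to pair them. A change of at least 1.5-fold left 6 members lower and 0 higher, 7 further pathway genes lower and 4 higher, and 1111 genes lower in all. Testing only genes of at least 5 CPM gave 2 members higher, with Syvn1 added. For all genes, 3123 were lower, and 2015 to 2174 with 1 library left out (2015 without HFD replicate 1); 3860 were higher, and 2710 to 3224 with 1 left out. Among the 97 further genes, 28 to 38 were lower with 1 library left out (28 without NCD replicate 2 or HFD replicate 1) and 6 to 8 higher. Signs turned only for genes that did not pass: with 1 library left out, log2 changes ran from -0.013 (without HFD replicate 2) to 0.053 for Dnajc10, which was also below 0 without NCD replicate 1 (-0.0050), from -0.0082 (without HFD replicate 2) to 0.068 for Sec61a1, from -0.088 (without HFD replicate 2) to 0.197 for Ssr2, from -0.201 to 0.082 (without HFD replicate 1) for Xbp1, and from -0.0997 to 0.042 (without HFD replicate 1) for Atf4, which was also above 0 without NCD replicate 2 (0.031) and at 5 CPM (0.022). The causes were not tested. With 2 libraries per diet, the number of libraries limits the precision.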

Other observations

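The 36 genes were close between the libraries of a diet, with a median gap of 3.12% of the mean in NCD and 2.76% in HFD. The widest gaps were in HFD, for Ssr2 (18.9%) and Xbp1 (18.8%), both higher in HFD replicate 2. In NCD the widest were those of Manf (7.58%) and Edem1 (7.56%). Across the 36 genes, the level per kilobase in NCD and the log2 change had a Spearman correlation of -0.30, a description over genes that share the same 4 libraries.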
